A study of Bos taurus with 12 samples.

Results

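Cloned embryos that overexpressed KDM5B were compared with fertilised embryos at the 8-cell stage, over the 14538 loci, of 22445 in the table, whose FPKM reached 1 in one group or both. FPKM counts the sequenced fragments of a transcript relative to its length and to the size of the library. The cloned group (SCNT_KDM5B_8C) was made by somatic cell nuclear transfer, which gives an enucleated egg the nucleus of a somatic cell, with KDM5B overexpression as the label. The fertilised group (IVF_8C) came from in vitro fertilisation and carries no KDM5B label. Plain nuclear transfer embryos (SCNT_8C) and bovine fetal fibroblasts (BFF) were read only to describe the loci. All groups were Holstein cattle, each embryo library was a pool of 8 embryos, and the labels list 3 libraries per group. How KDM5B was introduced, the age of the fetuses and whether these fibroblasts gave the nuclei are not stated in the labels or the design text.

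In cattle, the embryo begins broad transcription of its own genome around this stage, while transcripts stored in the egg are being cleared. KDM5B is a demethylase that takes methyl groups off lysine 4 of histone H3, where they accompany active promoters. A transplanted nucleus arrives with the marks of a body cell, and genes that keep the activity they had there are spoken of as somatic memory, the subject named in the series title.

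Each group has 1 value per locus, the authors' mean. No SD, SE, p-value or replicate check can be given for any difference, and a difference between means may lie within the spread between libraries, which the table does not show. Loci are named by ID, since the table does not pair IDs with symbols and 0 of them matched the gene table used. KDM5B itself, oocyte, fibroblast and cumulus markers and gene lists by function were therefore not analysed here, and the labelled cell types could not be set against their markers. Fewer cells of a type and less RNA per cell cannot be told apart in pooled embryos. The sum of FPKM was 774679 in IVF embryos and 887410 in KDM5B clones. Depth is unknown.

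Most loci stood well apart between KDM5B clones and IVF embryos. Differences are of log2(FPKM + 1), KDM5B clones minus IVF, and a locus was counted as apart at 2-fold on that scale. That count was 8471 of 14538 loci (58.3%), of which 3844 (26.4%) were higher and 4627 (31.8%) lower in the clones. The median absolute difference was 1.16. The median signed difference was -0.29, so the median locus lay somewhat lower in the clones, while the sum of FPKM was higher in them. After centring on that median, 7999 loci (55%) were apart, 4608 (31.7%) higher and 3391 (23.3%) lower. Centring thus turned the balance, from 45.4% to 57.6% of the loci apart being higher. The filter itself makes low loci differ: 2417 loci reached 1 FPKM in IVF embryos alone and 1956 in KDM5B clones alone. Among the 10165 loci at 1 or more in both groups, 2428 were higher and 3217 lower. At the edge of the filter, 343 loci had their higher value between 1 and 1.1 FPKM, and 352 loci between 0.9 and 1 stayed outside.

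The 2 directions differed in reach. As deposited, small differences leaned to the lower side and large ones to the higher side. After centring, more loci were higher than lower already at 2-fold or more, 4608 against 3391. At 4-fold or more as deposited, 1680 loci were higher and 1257 lower. At 8-fold or more, 657 loci (4.52%) were higher and 104 (0.715%) lower, and at 16-fold 254 and 10. A difference of 32-fold or more was seen for 79 higher loci and 0 lower ones. More loci were higher than lower at 8-fold under each scaling run: at 8-fold there were 887 higher and 46 lower loci after centring, 612 and 195 with columns rescaled to equal sums, and 633 and 141 after quantile normalization. With columns scaled to the sum outside the 100 most abundant loci they were 488 and 216. The size of the lean moved with the pseudocount, which limits the fold of a locus near 0 in either group. The 8-fold counts were 1527 and 690 at a pseudocount of 0.1 and 313 and 24 at 5. Among loci at 1 FPKM or more in both groups, with the pseudocount of 1 kept, they were 432 and 84.

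**Figure D1:**
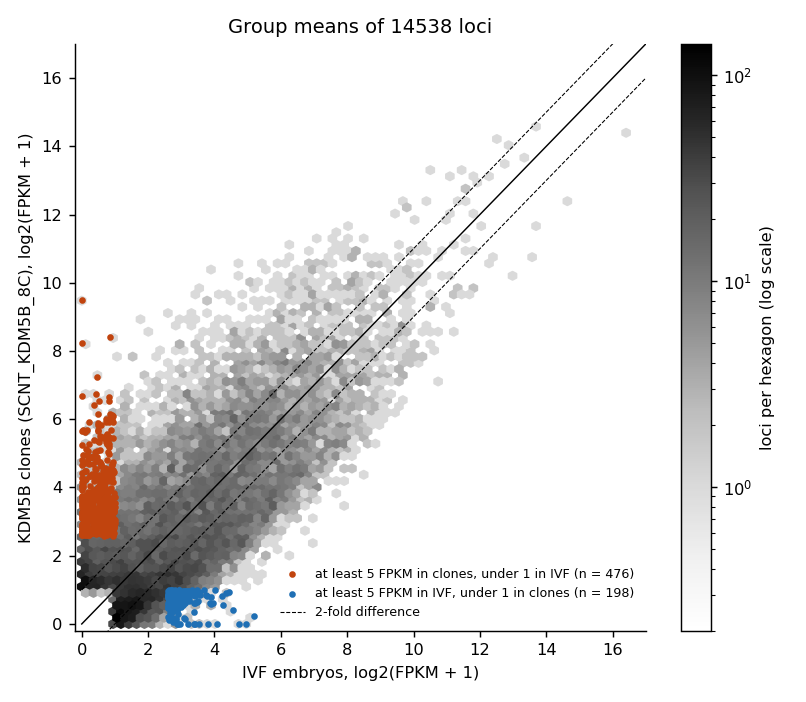
Each hexagon counts loci by their IVF value (x) and KDM5B clone value (y), both as log2(FPKM + 1), with group means as values and dashed lines at a 2-fold difference. The cloud spreads far above the diagonal and has a sharper lower edge; coloured points are the 476 loci seen in clones and the 198 seen in IVF embryos that were under 1 FPKM in the other group.

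**Figure D2:**
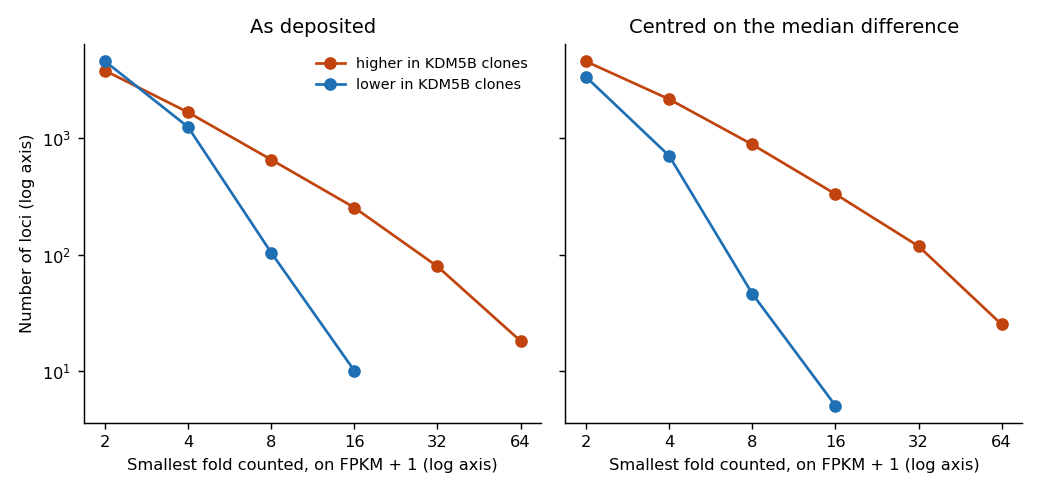
Number of loci at or beyond each fold on FPKM + 1, both axes logarithmic, as deposited and after centring on the median difference. The count of lower loci drops to 10 at 16-fold as deposited, while 254 loci were higher by that much; points at 0 are not drawn.

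The edges of the distribution, taken from the same differences, restate this lean as percentiles. Over all 14538 loci the 1st and 99th percentiles of the difference were -2.89 and 4.54. In loci with a mean of the 2 groups of 100 to under 1000 FPKM they were -3.22 and 6.17, or 9.34-fold lower against 71.9-fold higher on FPKM + 1. In loci of 10 to under 50 FPKM they were -3.10 and 4.93. Plain nuclear transfer embryos against the same IVF column had percentiles of -4.12 and 5.75 in the higher of these classes, and -3.63 and 4.86 in the lower. Both clone groups are set against the same IVF libraries, so these values are not independent of each other. The loci and classes were chosen on IVF and KDM5B values alone, so the clone groups are not compared on equal terms.

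Loci on in one group and off in the other were taken as those at 5 FPKM or more in one and under 1 in the other. There were 476 such loci (3.27%) in KDM5B clones and 198 (1.36%) in IVF embryos. Both counts shrank with abundance, the IVF one faster. Of 5306 loci at 10 FPKM or more in the clones, 221 were under 1 in IVF embryos, against 25 of 5483 in the reverse. At 50 FPKM or more it was 28 of 2078 loci against 0 of 1969. The lowest clone value of any locus at 50 FPKM or more in IVF embryos was 3.12 FPKM. No abundant transcript of fertilised embryos was thus below 1 FPKM in the mean of the KDM5B clones, while some abundant clone transcripts were in the IVF mean.

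**Figure D3:**
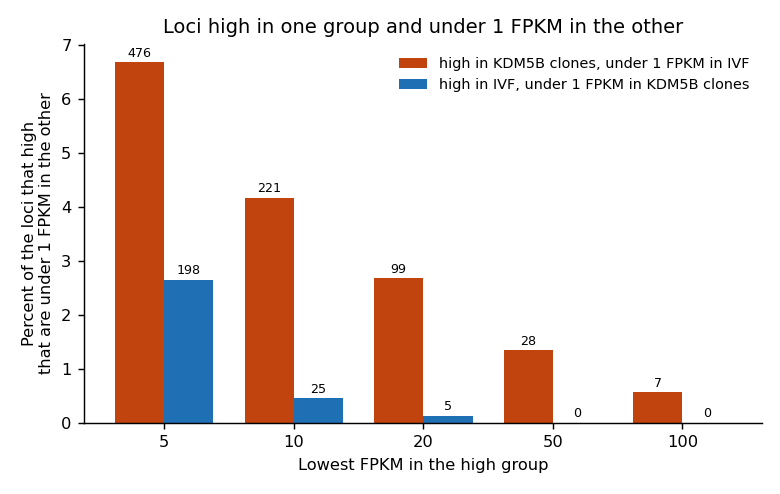
Bars give the percent of loci at or above each FPKM in one group that were under 1 FPKM in the other, with the number of loci above each bar. The share for loci high in IVF embryos reaches 0 from 50 FPKM on, while 28 of the loci that high in KDM5B clones were under 1 in IVF embryos.

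The 476 clone loci had a median of 9.03 FPKM with KDM5B, 8.07 in plain nuclear transfer embryos and 0.432 in IVF embryos. Of them 43 were listed at 0 in IVF embryos. In plain nuclear transfer embryos 349 of the 476 also reached 5 FPKM and 9 were under 1. Of all 14538 members, 6549 reached 5 FPKM there and 3574 were under 1. Fibroblasts held at least 10 FPKM of 114 of them (23.9%), a smaller share than the 34.8% of all members, and under 1 FPKM of 269 (56.5%, against 35.9% of all members). Most of these loci were therefore low in fibroblasts, though 18 reached 100 FPKM there. The 198 IVF loci had a median of 6.39 FPKM in IVF embryos and 0.717 with KDM5B, and 11 were listed at 0 there. In plain nuclear transfer embryos 158 of the 198 were under 1 FPKM and 0 reached 5, against 3574 and 6549 of the 14538 members. Fibroblasts held under 1 FPKM of 147 (74.2%), again against 35.9% of all members. None of the 198 reached 100 FPKM in fibroblasts, a level reached by 4.47% of all members. Loci of the authors' own, without an Ensembl ID, were 37.0% of the first class and 43.9% of the second, against 22.9% of all members. These loci are mostly low in fibroblasts, so the fibroblast shares move with the locus mix. Over Ensembl IDs alone, 104 of 300 clone loci (34.7%) and 60 of 111 IVF loci (54.1%) were under 1 FPKM in fibroblasts. The share of all Ensembl members was 22.0%. Expression level was not held fixed in these shares. Of the 6730 members with a mean of the 2 groups under 5 FPKM, 3693 were under 1 FPKM in fibroblasts. The authors' own loci were 38.1% of those 6730.

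The 10 largest differences in each direction were taken among the 9029 loci that reached 5 FPKM in one group or both. All 10 higher loci carried Ensembl IDs, and 7 of the 10 lower ones were the authors' own. Some of these 7 had close ID numbers and may not be separate observations. The contrast was milder in larger sets. The authors' loci were 22.9% of all members, 23.0% of the 657 loci higher by 8-fold and 35.6% of the 104 lower by 8-fold. The higher loci ranged from 103 to 1331 FPKM in the clones and from 0 to 14.8 in IVF embryos. In fibroblasts 4 of them stood at 10 FPKM or more and 5 under 1, against 34.8% and 35.9% of all members. ENSBTAG00000038783.2, first in rank, was listed at 0 in IVF embryos, 727 FPKM in KDM5B clones, 648 in plain nuclear transfer embryos and 509 in fibroblasts. It was high in both clone groups and in fibroblasts, and in the IVF mean it had no signal. ENSBTAG00000023823.1, second in rank, was listed at 0 in IVF embryos and 301 FPKM with KDM5B, against 1.87 without KDM5B and 24.2 in fibroblasts. It stood far higher in the KDM5B group than in any of the other groups. The lower loci reached 346 FPKM in IVF embryos, with a median of 38.5, and had a median of 0.902 in the clones, and 9 of the 10 were under 1 FPKM in fibroblasts. BGI_novel_G001646, an authors' locus, stood at 35.4 FPKM in IVF embryos, 0.17 with KDM5B, 2.65 in plain nuclear transfer embryos and 0 in fibroblasts. IVF embryos alone had a value above 0 for ENSBTAG00000035012.3, at 29.7 FPKM. Both were high in the fertilised group and at or near 0 in fibroblasts and KDM5B clones.

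Among the most abundant transcripts the groups shared many loci at different levels. The 100 most abundant loci of each group had 42 in common. Of the 100 in IVF embryos, 47 were at least 2-fold lower and 11 higher in KDM5B clones. Of the 100 in the clones, 67 were higher and 6 lower. Each list leans the way its choice by level makes it lean, and the counts are a description. The single most abundant IVF locus held 12.2% of the FPKM sum, at 94337 FPKM, against 21778 FPKM (2.45% of the sum) in KDM5B clones and 30632 in plain nuclear transfer embryos. It ranked second in the clones. The second most abundant IVF locus, listed at 0 in fibroblasts, stood at 24421 FPKM in IVF embryos and 5529 in KDM5B clones. It took 137 loci to make up the top 50% of the FPKM sum in IVF embryos and 180 in KDM5B clones. The top 100 loci held 46.3% of the sum in IVF embryos and 40.7% in KDM5B clones. The top locus of each group alone held 12.2% and 2.76%. The gap in the top locus was thus wider than the gap in the top 100 together. The rest of the top 100 did not hold a larger share in IVF embryos than in KDM5B clones. The number of loci that make up 50% of the sum was not taken again without the top locus.

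By expression level, classes cut on the mean of the KDM5B and IVF values had negative medians below 50 FPKM and positive ones above. A locus high in 1 group alone can enter a high class. Below 2 FPKM the median difference was -0.46 over 3819 loci, and from 10 to under 50 FPKM it was -0.22 over 3627. From 100 to under 1000 FPKM it was 0.46 over 1139 loci, and at 1000 or more 0.75 over 99. The share of loci apart by 2-fold went from 43.7% below 2 FPKM, where the pseudocount shrinks differences, to 69.7% from 100 to under 1000 FPKM. At 1000 FPKM or more it was 62.6%. High expression therefore did not bring the share apart down to that of the lowest class. After quantile normalization the gap between the medians at 100 or more and under 5 FPKM was 0.21, against 0.93 as deposited, so the lean by level depended on scaling. Classes cut on plain nuclear transfer embryos, which are on neither side of the difference, gave a steeper course. The median went from -0.95 over 3574 loci under 1 FPKM to 1.92 over 144 loci at 1000 or more, with 67.4% of the latter higher and 9.03% lower. Plain and KDM5B clones are both nuclear transfer groups, so this cut may partly follow the clone side of the difference. How far the clone groups resemble each other was not measured here.

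By fibroblast level, the median difference climbed from class to class. It was -0.94 over the 1997 loci listed at 0 in fibroblasts and -0.63 over 3229 loci above 0 and under 1 FPKM. It was -0.24 over 4253 loci from 1 to under 10, 0.03 over 4409 from 10 to under 100, and 0.87 over 650 at 100 FPKM or more. Of the loci listed at 0 in fibroblasts, 24.3% were at least 2-fold higher and 47.6% lower in KDM5B clones. Of those at 100 FPKM or more, 47.1% were higher and 17.8% lower. The classes in between overlapped widely, with quartiles of -0.97 and 1.23 at 10 to under 100 FPKM. Plain nuclear transfer embryos set against the same IVF column had medians of -1.08, -0.79, -0.39, -0.18 and 0.55 over the same loci. Members were chosen on IVF and KDM5B values, so loci that reached 1 FPKM in plain nuclear transfer embryos alone are left out. These medians and those of the KDM5B clones are therefore not on equal terms. After centring, loci at 0 were higher in 27.1% and lower in 34.4%, and loci at 100 or more in 52.0% and 14.2%. Among members, loci listed at 0 in fibroblasts were thus the class most often below the IVF level, and those at 100 FPKM or more the class most often above it. The size of this contrast depended on the filter, and the reason was not tested. Of the 10829 loci under 1 FPKM in fibroblasts, 5226 were members. The median at 10 FPKM or more in fibroblasts minus that under 1 was 0.86 among members and 0.058 over all 22445 loci. For loci at 100 or more it was 1.62 and 0.44.

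The share of all FPKM taken by the lowest and highest fibroblast classes moved the same way. Loci under 1 FPKM in fibroblasts held 18.3% of the sum in IVF embryos, 12.2% in KDM5B clones and 10.9% in plain nuclear transfer embryos. Loci at 100 FPKM or more in fibroblasts held 33.2%, 40.0% and 41.0%. KDM5B clones lay between the other embryo groups on both, nearer to plain nuclear transfer embryos. From 1 to under 10 FPKM they did not, with 14.3%, 10.3% and 10.4% in the same order. Single loci weigh heavily in these shares. The most abundant IVF locus, at 2520 FPKM in fibroblasts, alone held 12.2% of the IVF sum and 2.45% in KDM5B clones. The second, listed at 0 in fibroblasts, held 3.15% and 0.623%. Shares without such loci were not taken.

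Fibroblast level and embryo level are linked, so the classes were also read within levels, a choice made after seeing the data. Within classes of the mean of the KDM5B and IVF values, loci under 1 FPKM in fibroblasts had the lowest median at each level, and the distance to loci at 10 or more was greater at higher expression. At a mean under 5 FPKM the medians were -0.66 under 1 FPKM in fibroblasts, -0.14 at 1 to under 10 and -0.24 at 10 or more, so the middle class lay highest. At 5 to under 50 FPKM it was -1.25 over 1284 loci and 0.06 over 2277. At 50 or more it was -1.62 over 249 loci and 0.75 over 1417. Within classes of plain nuclear transfer expression the order turned from 1 FPKM on. At 1 to under 5 FPKM in those embryos both medians were below 0, -0.11 for 1761 loci under 1 FPKM in fibroblasts and -0.45 for 1163 loci at 10 or more. At 5 to under 50 FPKM the median was 0.72 for 929 loci under 1 FPKM in fibroblasts and 0.17 for 1955 loci at 10 or more, and at 50 or more it was 2.05 for 158 loci and 1.26 for 1371. Only under 1 FPKM in plain nuclear transfer embryos was it lower for loci low in fibroblasts, -1.01 against -0.78. The relation to fibroblast level thus depended on which embryo value was held fixed. The cut on plain nuclear transfer embryos may partly follow the clone side of the difference, so the turned order cannot be read apart from that choice.

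**Figure D4:**
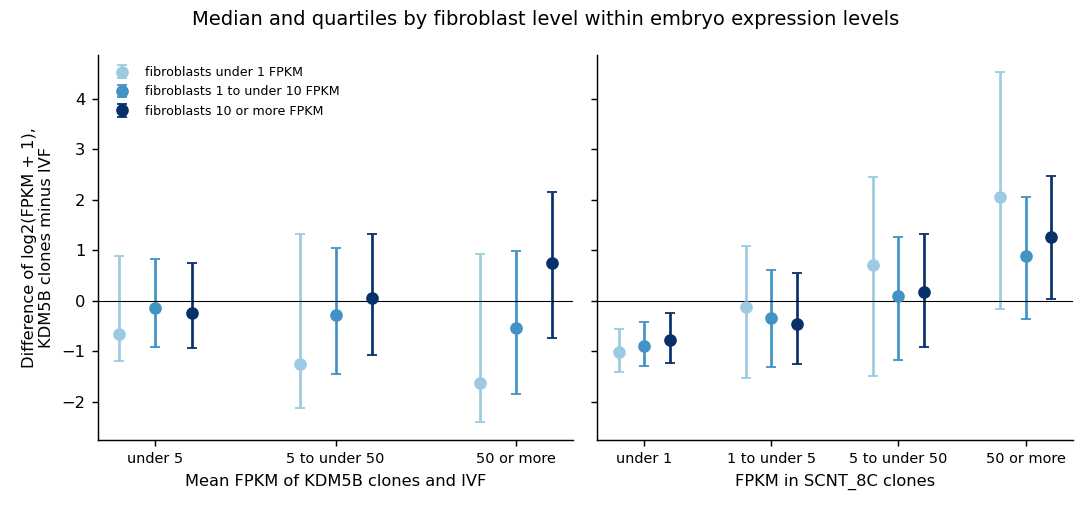
Points give the median and bars the quartiles of the difference of log2(FPKM + 1), KDM5B clones minus IVF, over loci in 3 fibroblast classes. On the left, within classes of the mean of the compared groups, loci at 10 FPKM or more in fibroblasts lie highest from 5 FPKM on; on the right, within classes of plain nuclear transfer expression, loci under 1 FPKM in fibroblasts lie highest from 1 FPKM on.

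By locus type, Ensembl IDs numbered 11208 and the authors' own loci 3330, with median differences of -0.31 and -0.25. The gap of 0.059 between them rested on the filter: it was 0.56 among loci at 5 FPKM or more in either group and -0.090 with no filter. Of the first 2905 were higher and 3584 lower, and of the second 939 and 1043. Within Ensembl IDs the median went from -0.97 at 0 FPKM in fibroblasts through -0.39 at 1 to under 10 to 0.87 at 100 or more. In the authors' loci it was -0.93 at 0, -0.16 above 0 and under 1, and 0.52 over 474 loci at 1 to under 10 FPKM. In that last class 32.5% of the authors' loci were higher and 9.70% lower, against 22.4% and 32.9% of 3779 Ensembl IDs. The climb with fibroblast level was thus present in both kinds of locus. Only 101 authors' loci stood at 10 FPKM or more in fibroblasts, 12 of them at 100 or more, so their upper classes are thin. At equal abundance the authors' loci were more often apart: at a mean of 10 to under 50 FPKM it was 75.3% of 308, against 62.9% of 3319 Ensembl IDs.

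**Figure D5:**
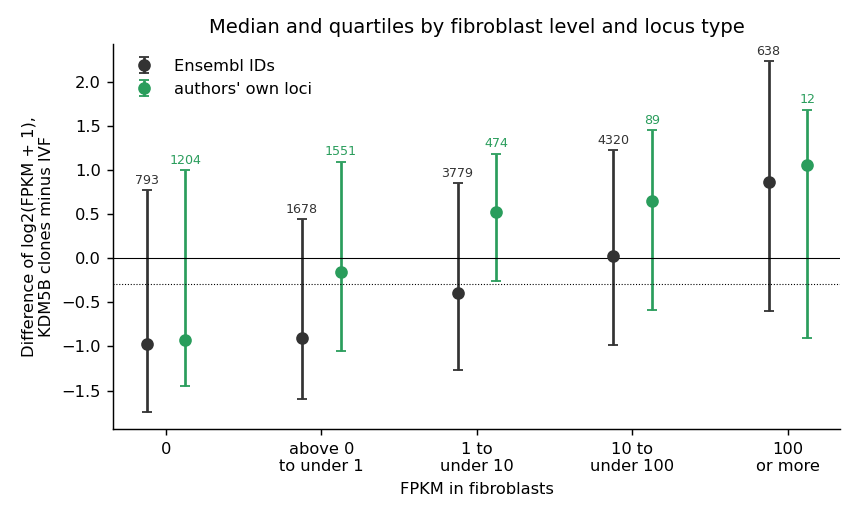
Points give the median and bars the quartiles of the difference of log2(FPKM + 1), KDM5B clones minus IVF, by FPKM in fibroblasts, with the number of loci above each bar and a dotted line at the median of all loci. Medians climb from -0.97 to 0.87 in Ensembl IDs and from -0.93 at 0 to 0.52 at 1 to under 10 FPKM in the authors' loci, while the quartiles of neighbouring classes overlap.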

How the data were processed

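RNA sequencing was labelled as 12 libraries in 4 groups, assigned from sample titles. The authors deposited FPKM values as a single table with a column for each group. No source calls these columns means; the values do, since at least 99.9955% in each are whole multiples of 0.01 divided by 3 (tolerance 0.001 on the value times 300). Per the submitters' processing notes, the tools were RSEM 1.2.12, Bowtie2 2.2.5, HISAT 0.1.6, bcl2fastq 2.16 and StringTie 1.0.4 and the genome build was UMD3.1, with no role given. The annotation is not given in the sources used. Per the labels' protocols, embryos were lysed directly and cDNA was amplified, which can distort low transcripts. The design text names another sequencer for fibroblasts (BGIseq) than for embryos (HiSeq), whereas the labels' protocol names HiSeq for all, so whether fibroblast levels carry a platform difference is not known.

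Differences were taken of log2(FPKM + 1), with loci at 1 FPKM or more in either group and a call at 2-fold. A test by limma was planned only for values per library and could not be fitted. Of the planned named genes, the first 2 IDs each way among the 10 largest differences were printed. The 22 gene lists were not used, as 0 of the 37063 entries in the gene table carry an Ensembl ID. Members, lists and classes were chosen with earlier results of these data known. The counting code was tested on the deposited IVF values copied into the clone columns, with chosen loci set 4-fold apart. Python 3.11.15, numpy 2.4.6, pandas 2.3.3 and matplotlib 3.10.9 were used.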

Additional observations from a re-analysis of the deposited data

How the results depend on the processing

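A count, or a gap between medians, was held to have moved when it changed by over 1.5 times. Of 86 values under the alternatives, 49 stayed, 33 moved and 4 changed sign; the cause of these changes was not tested beyond what an alternative itself does. With a pseudocount of 5, loci 2-fold apart numbered 2298 higher and 2313 lower (2695 and 1891 centred). Called at 4-fold they were 1680 and 1257. With 1 FPKM or more in both groups, chosen after seeing the data, 2428 were higher (2798 centred). Loci on in one group and off in the other numbered 121 in clones and 8 in IVF embryos at 10 FPKM against under 0.5, and 300 and 111 for Ensembl IDs only. In IVF embryos they were 304 as TPM and 114 with the IVF column scaled to a median difference of 0, the latter chosen after seeing the data. The gap in medians by mean expression was 1.43 at 5 FPKM or more, 0.51 with no filter and 0.21 after quantile normalization; by plain nuclear transfer expression it was 1.27 with no filter. The gap by fibroblast level, loci at 10 FPKM or more minus those under 1, 0.86 as reported, was 1.34 at pseudocount 0.1, 0.33 at 5, 1.60 at 5 FPKM or more and 0.058 with no filter. For loci at 100 or more, with 1.62 as reported, it was 0.88 at pseudocount 5, 2.54 at 5 FPKM or more and 0.44 with no filter. Within mean levels, from low to high, the first gap was 0.42, 1.31 and 2.37. Within plain nuclear transfer levels it was 0.23, -0.34, -0.54 and -0.78, so it changed sign there. The gap between the authors' loci and Ensembl IDs, 0.059 as reported, was 0.00056 at pseudocount 0.1, 0.56 at 5 FPKM or more, 0.016 as TPM, 0.24 after quantile normalization and -0.090 with no filter.

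No paired analysis was possible because a column holds the mean of a whole group, without replicate numbers. Leaving out replicates and the gene lists were not run, for the same reason and for lack of gene names. Depth is unknown, so no limit can be put on a locus listed at 0.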

Other observations

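Authors' loci with neighbouring ID numbers tended to differ from IVF in the same direction. Over 2323 pairs of members whose numbers differ by 1, Pearson's r of the difference between KDM5B clones and IVF embryos was 0.41. It was 0.23 over 2320 pairs at a distance of 2, 0.12 over 2280 at 5 and 0.046 over 2265 at 50. For Ensembl IDs it was 0.022 over 4188 pairs with numbers 1 apart. Of the authors' pairs 1 apart, 336 were both higher by 2-fold, 369 both lower and 211 opposite. Pairs share members and libraries, the correlations are across loci, and the table gives no positions, so whether such loci lie side by side or share reads was not tested. The authors' loci are therefore not 3330 separate observations. A further 14 members, in 7 sets, had the same value as another member in all 4 groups.

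Among all 22445 loci, 143 reached 1000 FPKM in KDM5B clones and 144 in plain nuclear transfer embryos, against 79 in IVF embryos. Of all loci, 2722 were listed at 0 in IVF embryos, 3430 in plain nuclear transfer embryos and 2151 in KDM5B clones. The KDM5B group thus had the fewest loci at 0, and depth, which can set that number, is unknown.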
